A study of Mus musculus with 15 samples.

Results

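Many mouse genes have more than 1 annotated transcription start site (TSS), and some of these sites lie so close together that the nucleosome arrangement of one falls inside the promoter of the other. The start sites described here are the high-coverage TSSs, those with a coverage score above 100 in the authors' promoter annotation, that had another high-coverage TSS 150 to 1000 bp away on the same chromosome and strand. There were 1407 of them among 13559 high-coverage TSSs (10.4%) and 25881 TSSs in all. The rule used positions and coverage only, and no occupancy value entered the choice. The 1407 sites formed 919 close pairs within 609 clusters. Of these clusters, 490 were isolated pairs (980 sites) with an upstream and a downstream TSS in the direction of transcription, and the other 119 held 3 or more sites (427 sites). Comparisons of upstream with downstream sites below are of the 490 isolated pairs, whose median distance was 411.5 bp (quartiles 266 and 611 bp). In 388 of them both sites belonged to the same gene. A further 37 joined a gene or longer transcript to a small RNA (a miRNA or a small nucleolar RNA, snoRNA), with the small RNA downstream in 32, and 36 joined 2 small RNAs. The other 29 joined different genes. The largest cluster held 12 miRNA sites of the Mir467 and Mir669 families on chromosome 2, between 10397970 and 10400943 in the mm9 build.

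Nucleosomes were mapped by ChIP-MNase, which recovers chromatin with an antibody before micrococcal nuclease cuts it between nucleosomes, so that the map covers alleles that carry the mark. H3K4me1, a histone mark of promoters and enhancers, was used in dendritic cells (DCs) that were non-stimulated or treated with LPS (100 ng/ml, 1 h), and in 3T3 fibroblasts that were non-stimulated or treated with TNF-α (5 ng/ml, 1 h). Each of these 4 sets of occupancies combines 2 replicates that the authors pooled. The DCs were grown with GM-CSF from bone-marrow-derived progenitor lines, and 3T3 is an immortalised line. Another 8 H3K4me1 libraries were single replicates of fibroblasts: control and BAF knockdown cells, each non-stimulated and after TNF-α, with 2 replicates each. BAF is a chromatin remodelling complex, and its knockdown was a stable retroviral shRNA against the Brg1 and Brm transcripts in GFP-sorted cells, a reduction and not a deletion. From stimulated fibroblasts there were also 2 libraries made with an antibody against pol-II S7P and 1 against pol-II S5P, forms of RNA polymerase II phosphorylated on its C-terminal domain. The study describes its replicates as biological and independent, but the labels do not say whether they came from separate cultures, so the p-values below measure the spread between these libraries. Expression levels in the promoter annotation fitted the cell-types: 10 of 10 DC markers ranked higher among all promoters in DCs than in fibroblasts, and 0 of 10 fibroblast markers did.

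Active promoters typically have a nucleosome depleted region (NDR) just upstream of the TSS, where transcription factors and the pre-initiation complex assemble, and a well positioned +1 nucleosome just downstream of it. Where a gene has alternative start sites, the transcripts differ in their first exon or 5′ end, and each site needs access for the initiation machinery. A second TSS placed a nucleosome's length or more downstream has its own upstream region where the +1 nucleosome of the first would lie. Most vertebrate snoRNAs, and many miRNAs, are cut out of the introns of a host transcript, so the annotated 5′ end of a small RNA need not be a place where transcription starts.

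The sequences of 4 pairs show what such neighbourhoods look like. Zfp672, a zinc finger gene, and the miRNA pair Mir467d and Mir466 had the largest differences in each direction by the rule in the methods. Slc19a1, the reduced folate carrier, was the first same-gene pair in the lower direction and was added after its values were seen, and Gpr174, a G protein-coupled receptor of lymphoid cells, had the largest difference between cell-types. Capitals mark 20 bases from the annotated TSS on, lower case the bases before it, and all are 5′ to 3′ on the annotated strand of mm9. Case does not mark exons: 1 printed base of the upstream Zfp672 site lies in an annotated exon. All 30 printed bases of the upstream Slc19a1 site do, and so do all 30 of the downstream Gpr174 site. For Slc19a1 upstream and Gpr174 downstream only 30 bases are given.
Zfp672 upstream, chr11:58136848-58136967, minus strand: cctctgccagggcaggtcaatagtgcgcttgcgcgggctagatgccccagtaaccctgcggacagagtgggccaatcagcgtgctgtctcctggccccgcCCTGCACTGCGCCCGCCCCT
Zfp672 downstream, chr11:58136596-58136715, minus strand: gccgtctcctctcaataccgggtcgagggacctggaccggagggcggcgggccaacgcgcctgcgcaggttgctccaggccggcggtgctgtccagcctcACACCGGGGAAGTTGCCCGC
Mir467d (upstream of Mir466), chr2:10429158-10429277, plus strand: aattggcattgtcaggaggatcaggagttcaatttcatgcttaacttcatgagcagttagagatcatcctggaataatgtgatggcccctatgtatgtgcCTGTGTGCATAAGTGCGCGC
Mir466 (downstream of Mir467d), chr2:10429446-10429565, plus strand: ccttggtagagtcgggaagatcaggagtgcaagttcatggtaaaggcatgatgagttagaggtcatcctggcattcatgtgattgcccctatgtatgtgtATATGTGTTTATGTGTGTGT
Slc19a1 upstream, chr10:76495475-76495504, plus strand: atcagatcaaGCAATCTGCTGTGAGCTGAG
Slc19a1 downstream, chr10:76495858-76495977, plus strand: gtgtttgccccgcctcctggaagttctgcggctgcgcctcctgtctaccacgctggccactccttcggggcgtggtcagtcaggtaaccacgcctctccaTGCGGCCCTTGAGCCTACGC
Gpr174 upstream, chrX:104451118-104451237, plus strand: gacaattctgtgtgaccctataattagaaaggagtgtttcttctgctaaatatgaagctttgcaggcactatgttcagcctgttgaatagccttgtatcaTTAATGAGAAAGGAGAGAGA
Gpr174 downstream, chrX:104451358-104451387, plus strand: cacccacttgAAAACGGAAATCTTCAATGT
Both Zfp672 sites are rich in CG dinucleotides, with 8 and 13 in the printed bases. The miRNA pair has 2 and 1, and the upstream Gpr174 site has 0.

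Occupancy is given in 200 bins of 10 bp from 1000 bp upstream to 1000 bp downstream of each TSS, smoothed by the authors over 50 bp and expressed relative to the surrounding 1 kb. Both sites of a close pair therefore share most of their reference, and differences that span a kilobase are removed. Here each library was divided by its mean over high-coverage promoters, and this scaled occupancy was averaged from −150 to 0 bp as NDR occupancy. The difference between the downstream and the upstream site of a pair is called its balance. The windows of a pair overlap: where the bins of both sites coincided, all 56 pairs that could be compared held identical values in each of the 15 libraries, so the 2 sites are views of the same fragments and not independent measurements. Lone sites, the 9012 high-coverage TSSs with no other annotated start within 1 kb, served as comparison. The occupancies carry no read counts, so depth is unknown and no sampling interval can be given. Bins with any signal made up 63.5% to 90.2% by library, and an NDR occupancy of exactly 0 was found at 9.24% to 27.9% of the close sites by library, against 7.22% to 26.2% of all high-coverage sites. In 90 of the 1407 sites (6.40%) it was 0 in all 8 single libraries, against 342 of all high-coverage sites (2.52%), although 25 of the 90 were above 0.5 in every pooled set. Of the upstream and downstream sites of isolated pairs, 10 and 11 were at 0 in all 8. Repeated sequence was more frequent among the close sites: 77 of them (5.47%) carried an accession that the annotation places more than once, against 1.62% of high-coverage sites, and none of these was in an isolated same-gene pair.

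In same-gene pairs 150 to 300 bp apart (127 pairs), occupancy was lower upstream of the first TSS than upstream of the second. NDR occupancy was 0.681 ± 0.049 at upstream and 0.936 ± 0.058 at downstream sites (mean over pairs, then mean ± SD over the 8 single libraries), a difference of 0.255 ± 0.064. The downstream mean was higher in 15 of 15 libraries. The smallest difference was 0.150 and the largest 0.480. In pooled sets the difference was 0.312 ± 0.107 (n = 4) and in pol-II libraries 0.302 ± 0.155 (n = 3). Lone sites had an NDR occupancy of 0.788 ± 0.034, so the upstream sites lay below lone sites (14 of 15 libraries) and the downstream sites above them (15 of 15). The groups differed in sequence: CpG islands (defined below) were at 67.7% of these upstream and 66.9% of these downstream sites, against 49.4% of lone sites. Median coverage was 303.5 at close sites and 192.5 at other high-coverage sites. The part of islands and coverage in the comparison with lone sites was not tested. At lone sites, the same distance downstream of the TSS covers their +1 nucleosome, and occupancy there was 1.05 ± 0.02. The downstream sites of close pairs were below that level in 15 of 15 libraries, a position between an open NDR and the +1 nucleosome of a lone promoter.

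The mean profiles gave the same picture. In pooled non-stimulated fibroblasts the profile aligned on upstream sites at 150 to 300 bp fell to 0.463 at −45 bp and rose to 1.3 at 145 bp. The +1 peak was thus 2.82 times the trough, against 1.98 times at lone sites and 1.76 times in the profile aligned on the downstream sites. In non-stimulated DCs these ratios were 2.46, 1.88 and 1.63. With pol-II S5P they were 3.16, 2.75 and 1.62. In the downstream-aligned profiles the lowest value lay at −195 bp in fibroblasts (0.751) and with pol-II S5P (0.868). That position is outside the NDR window and can lie near the upstream TSS. Those ratios therefore do not describe a downstream NDR. In DCs the lowest value was 0.758 at −45 bp. The upstream-aligned profile had the deeper trough in each of these 3 libraries, and no test was made of profiles.

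The difference varied between distance classes. The ± values are SDs over libraries that measured the same pairs, so they do not give the spread between pairs. No test compared the classes. In the 41 same-gene pairs 150 to 199 bp apart, NDR occupancy was 0.766 upstream and 0.790 downstream, a difference of 0.0236 ± 0.120 over the 8 single libraries. At 200 to 249 bp (38 pairs) the difference was 0.356 ± 0.185, and at 250 to 299 bp (48 pairs) 0.372 ± 0.161, both positive in 15 of 15 libraries. It dropped to 0.0177 ± 0.155 at 300 to 349 bp (32 pairs), with 4 of 8 single libraries positive. At 200 to 299 bp, the region tested for depletion at the downstream site is where a +1 nucleosome of the upstream site would lie. The window takes in that position at 150 to 199 bp as well, where the difference was small. Whether this nucleosome has a part in the difference at 200 to 299 bp was not tested. Beyond this range the differences were smaller than at 200 to 299 bp and, in the single libraries, within 1 SD of 0 in each wider band. They were, in the bands above 300 and up to 500 bp (117 pairs), up to 750 bp (92 pairs) and up to 1000 bp (52 pairs), 0.0436 ± 0.0974, −0.0230 ± 0.0916 and 0.0900 ± 0.118. The downstream mean was nevertheless higher in 11 of 15 libraries up to 500 bp, where the 4 pooled sets gave 0.129 ± 0.118 and all had this direction, and in 12 of 15 above 750 bp, where the 3 pol-II libraries gave 0.154 ± 0.079. Within the first of these bands, the 29 pairs at 350 to 399 bp had a difference of 0.159 ± 0.209 in the single libraries (7 of 8 positive), with 1 of 4 pooled sets and 1 of 3 pol-II libraries positive. Between 500 and 750 bp the upstream mean was 0.814 and the downstream mean 0.791, both near the lone sites, and 7 of 15 libraries had the higher value downstream. Among 17 pairs at 900 to 1000 bp the downstream site was again higher, 0.970 against 0.654, in 15 of 15 libraries. These classes are small and the pairs in them few, so the last value rests on 17 genes.

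**Figure D1:**
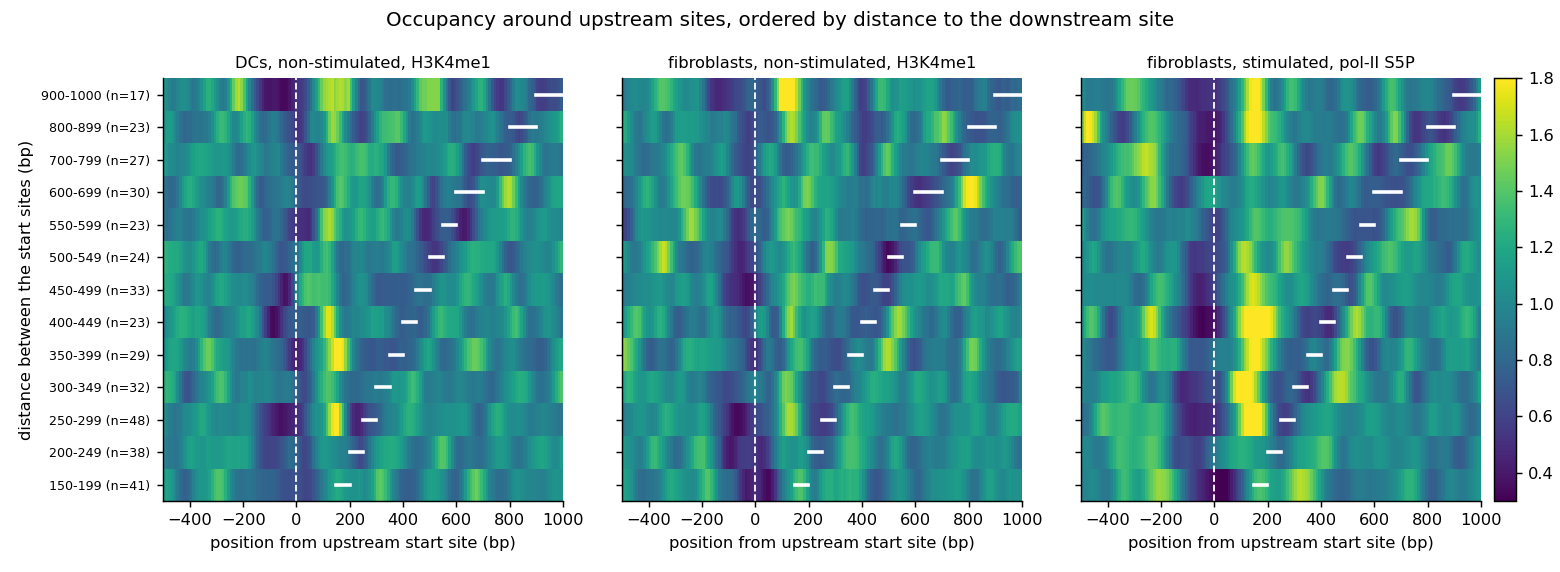
Mean scaled occupancy (colour) around the upstream TSS of same-gene pairs, by class of distance to the downstream TSS (vertical axis) and position from the upstream TSS in bp (horizontal axis), in pooled non-stimulated DCs, pooled non-stimulated fibroblasts and pol-II S5P from stimulated fibroblasts. The dashed line is the upstream TSS and white segments span the downstream TSSs. Low occupancy lies at the upstream TSS in most classes and a weaker low patch follows the white segments. At 250 to 299 bp the bright +1 nucleosome between the 2 TSSs falls inside the NDR window of the downstream site, whose mean was 0.973 in the 8 single libraries.

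Medians over pairs were smaller than means. In the 8 single libraries the median balance of the 127 nearest same-gene pairs was 0.109 ± 0.084 (medians of 0.555 upstream and 0.825 downstream) and it was above 0 in 13 of 15 libraries. At 500 to 750 bp it was −0.0607 ± 0.0680, below 0 in 10 of 15 libraries. Over all 490 isolated pairs it was 0.0255 ± 0.0356, above 0 in 12 of 15 libraries and below 0 in none. The median balance was larger in pooled fibroblasts (0.119) and pol-II libraries (0.101). In an average single library the downstream site was the higher one in 50.1% of pairs and the lower one in 44.6%, the rest being tied. At 300 to 500 bp the medians were 0.734 upstream and 0.750 downstream, and the balance was above 0 in 11 of 15 libraries. Above 750 bp they were 0.684 and 0.862, with a median balance of 0.0474 ± 0.159 that was above 0 in 12 of 15 libraries. The 500 to 750 bp band was thus the 1 band without a higher downstream median.

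**Figure D2:**
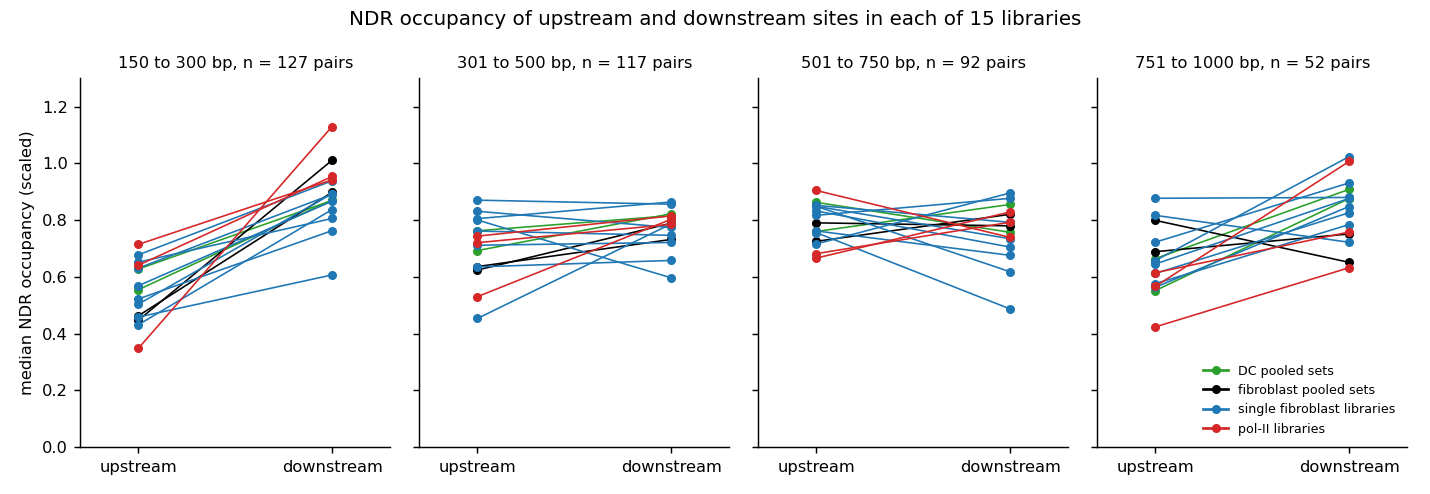
Median NDR occupancy of upstream and downstream sites of same-gene pairs in 4 distance bands, 1 line per library (15 libraries; green pooled DCs, black pooled fibroblasts, blue single H3K4me1 fibroblast libraries, red pol-II). The lines rise from the upstream to the downstream site at 150 to 300 bp and show no shared slope at 500 to 750 bp.

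Single pairs were tested with limma on the balance in the 8 single libraries, fitted and adjusted (Benjamini-Hochberg, 0.05) over all 13518 neighbouring pairs of high-coverage sites at any distance. The downstream site was higher in 29 of 490 isolated pairs (5.92%), close to the 5.25% of all neighbouring pairs. It was lower in 8 (1.63%), against 4.86% of all neighbouring pairs. In the same-gene pairs there were 21 higher (5.41%) and 6 lower (1.55%). At 150 to 300 bp, 12 of 127 were higher (9.45%) and 1 lower, and in the next 3 bands 2, 4 and 3 were higher and 3, 1 and 1 lower. At an unadjusted p under 0.05 the counts were 73 higher (14.9%) and 44 lower (8.98%), against 15.2% and 14.6% in the whole table. The counts of calls depend on the number of libraries. The higher count fell to 11 without control non-stimulated replicate 1, 2 without its replicate 2, 12 without control stimulated replicate 1 and 7 without its replicate 2. Without BAF knockdown non-stimulated replicate 1 or 2 it was 5 or 10, and without BAF knockdown stimulated replicate 1 or 2 it was 0 or 3. The lower count fell to between 0 and 2. The file names of the first BAF knockdown replicate of both states carry a different MNase entry than those of the other 6 single libraries, and without these 2 libraries the counts were 0 and 0.

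Of the 29 pairs with a higher downstream site, the upstream site had a called NDR in 28 (the depletion test is described further on, and it uses the same occupancies), and the difference had the same sign in all 8 single libraries in 15. The 7 other libraries, which the fit did not use, had the same sign throughout in 18 of the 29 (62.1%), against 34.4% of the 710 such calls in the whole table. For the 8 lower pairs this was 2 (25%) against 33.6% of 657. The pairs named next are those with the largest difference and the same sign in all 8 single libraries. In the counts over 15 libraries given for them, only the 7 other libraries were therefore free to differ in sign.

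Zfp672 had the clearest difference. Its TSSs lie 252 bp apart on the minus strand of chromosome 11 (mm9, 58136867 and 58136615). Upstream NDR occupancy in the 8 single libraries ranged from 0 to 0.523 with a median of 0.0442, and downstream from 1.40 to 2.82 with a median of 2.04. The 2 ranges do not overlap. In non-stimulated and LPS-treated DCs the upstream site was at 0 and 0 and the downstream site at 2.01 and 2.63. Pooled fibroblasts gave 0.490 and 1.15 before and 0.366 and 1.09 after TNF-α, and the 3 pol-II libraries 0.0828 to 0.479 upstream and 1.90 to 2.03 downstream. The lowest downstream value of the 15 libraries was thus above the highest upstream value. The fitted difference was 1.83 (SE 0.142, limma adjusted p = 0.0154).

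The other 5 pairs of this direction were lower at the upstream site in every library too. Lsm2, a subunit of the ring that binds U6 snRNA, has sites 276 bp apart. Its upstream values ranged from 0.00767 to 0.671 with a median of 0.236, and its downstream values from 1.04 to 3.30 with a median of 1.72 (limma difference 1.49, SE 0.269, adjusted p = 0.0266). In C87436 (248 bp) the upstream range was 0 to 0.202 and the downstream range 0.731 to 2.79 (difference 1.46, SE 0.272, limma adjusted p = 0.0280). Neither pair overlapped between its sites. Pttg1, which encodes securin, an inhibitor of sister chromatid separation, has sites 267 bp apart. Its upstream median was 0.00387 (0 to 0.462) and its downstream median 1.44 (0.531 to 1.82), again without overlap (difference 1.20, SE 0.183, limma adjusted p = 0.0209). In Ttc4, a tetratricopeptide repeat protein that binds heat shock proteins, the sites are 258 bp apart and the ranges met, 0 to 1.43 upstream and 0.310 to 2.76 downstream (difference 1.14, SE 0.271, limma adjusted p = 0.0458). Clec12b, a C-type lectin receptor, had the widest spacing of the 6 (371 bp) and no CpG island at either site. Its values were 0 to 0.748 upstream and 0.779 to 1.99 downstream (difference 1.14, SE 0.185, limma adjusted p = 0.0225). In all 6 pairs the downstream site was the higher one in 15 of 15 libraries, DCs included.

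The opposite arrangement, with the NDR at the downstream site, was called in fewer pairs. Slc19a1 has TSSs 473 bp apart on the plus strand of chromosome 10 (76495485 and 76495958). Upstream values in the 8 single libraries ranged from 0.567 to 2.11 with a median of 0.953, and downstream values from 0 to 0.260 with a median of 0.107, so the sites did not overlap (difference −0.97, SE 0.182, limma adjusted p = 0.0282). The same direction was seen in 14 of 15 libraries, the exception being pooled non-stimulated fibroblasts (0.426 upstream and 0.620 downstream). Morf4l2, a subunit of histone acetylating complexes, has sites 768 bp apart. Its upstream median was 0.909 and its downstream median 0.106, and downstream was lower in 15 of 15 libraries although the ranges overlapped (0.0251 to 2.08 and 0 to 0.410, difference −0.85, SE 0.194, limma adjusted p = 0.0430). A930001C03Rik (236 bp) was the 1 pair under 300 bp with this direction among same-gene pairs, with medians of 1.17 and 0.419 (difference −0.64, SE 0.152, limma adjusted p = 0.0466). In Hdhd2 (303 bp) the medians were 1.10 and 0.00837 (difference −0.95, SE 0.217, limma adjusted p = 0.0428), but both DC sets and all 3 pol-II libraries had the higher value downstream.

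The remaining 2 pairs of this direction joined miRNAs on chromosome 2, between 10429258 and 10431792, outside the cluster of 12 miRNA sites. Mir466 was at 0 in all 8 single libraries, while Mir467d, 288 bp upstream, ranged from 0.504 to 2.6 with a median of 1.15 (difference −1.41, SE 0.283, limma adjusted p = 0.0321). In both DC sets the 2 sites were at 0, and in pooled fibroblasts Mir467d was at 1.92 and 0.791 and Mir466 at 0. The values carry no counts, so these sites are given only as listed at 0. For Mir669c and Mir669a-2 (868 bp) the medians were 1.24 and 0.242 (difference −0.86, SE 0.201, limma adjusted p = 0.0453), lower downstream in 14 of 15 libraries. Without BAF knockdown stimulated replicate 1 none of the 12 named pairs passed the limma threshold (adjusted p = 0.0526 to 0.112), and without any 1 of the other 7 libraries between 1 and 5 of them did.

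**Figure D3:**
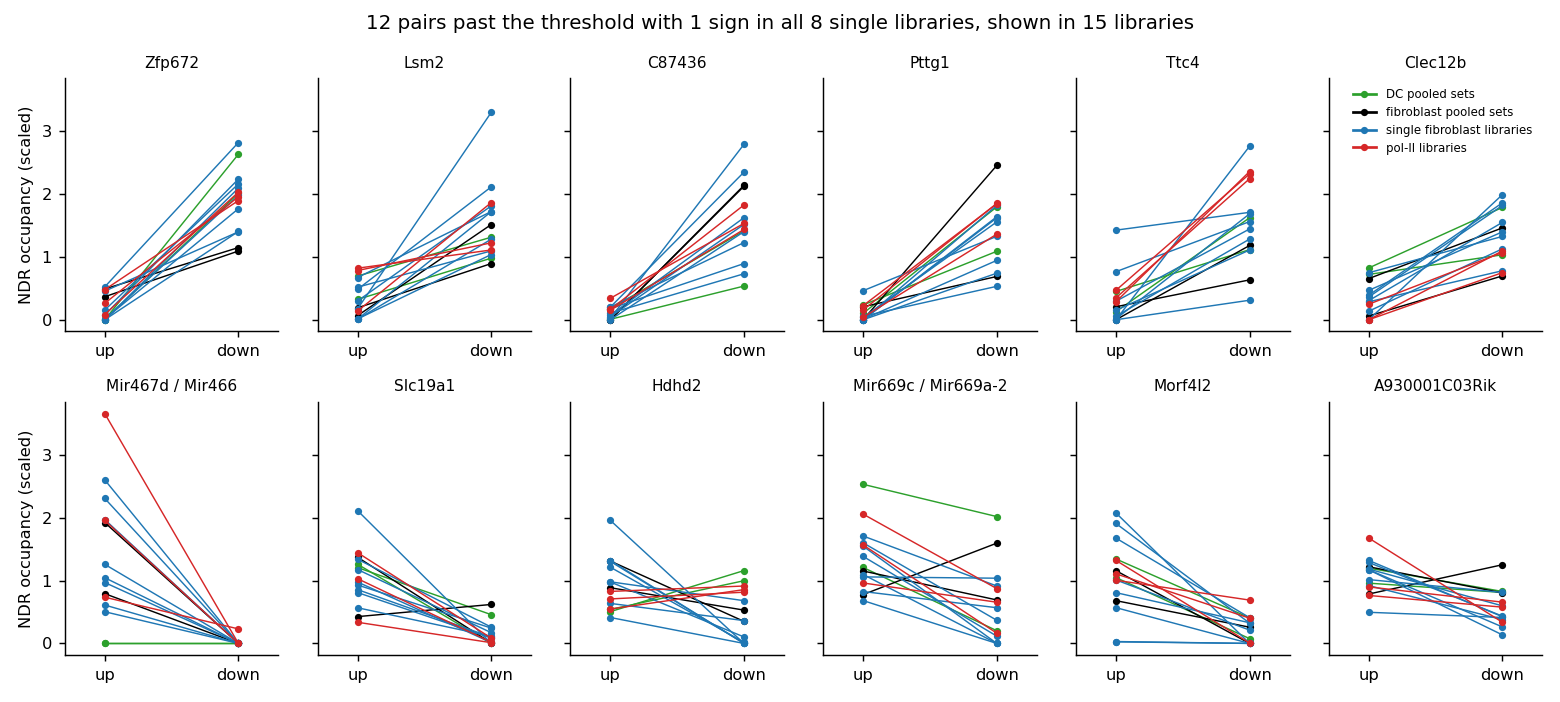
NDR occupancy (scaled, vertical axis) of the upstream and downstream site of the 12 named pairs, 6 with the higher value downstream and 6 with the lower, 1 point per site and library (15 libraries). For Zfp672 the upstream points lie at 0 to 0.523 and the downstream points at 1.09 to 2.82, and for Mir467d and Mir466 the downstream points of the 8 single libraries lie at 0.

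Pairs of a gene with a small RNA had the largest share of calls. Of these 37 pairs, the downstream site was higher in 8 (21.6%) and lower in 0, against 5.25% and 4.86% of all neighbouring pairs. In each of the 8 the downstream site was the small RNA. CpG islands were at 67.6% of the upstream and 51.4% of the downstream sites of the 37 pairs, and their part in these calls was not tested. Over the 37 pairs the medians in the 8 single libraries were 0.529 ± 0.153 upstream and 0.931 ± 0.127 downstream. Their median balance was 0.361 ± 0.178 and positive in 15 of 15 libraries (0.0176 to 0.811). Most of the called pairs, which were named after their values were seen, were snoRNAs in genes of ribosomal proteins. In Rpl3, a protein of the large ribosomal subunit that hosts Snord43 500 bp from its TSS, occupancy was 0.294 ± 0.321 at the gene's NDR and 1.28 ± 0.21 at the snoRNA (limma adjusted p = 0.0245). Rpl23a and Snord42b gave 0.291 and 1.31 (471 bp, limma adjusted p = 0.0453), Rpl32 and Snora7a 0.522 and 1.14 (640 bp, limma adjusted p = 0.0458), and Rps3 and Snord15a 0.231 and 1.20 (777 bp, limma adjusted p = 0.0292). The other called pairs were Nsrp1 with Mir423, Rps16 with AF357399 and the noncoding hosts Snhg7 with Snora17 and Dancr with Snora26. In each of the 8 the host promoter had a called NDR, and occupancy at the small RNAs was between 0.751 and 1.36.

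Over all 37 such pairs, the mean profile aligned on the upstream site had a deeper trough and a higher +1 peak relative to it than same-gene pairs or lone sites, in pooled non-stimulated DCs and fibroblasts and with pol-II S5P. In those DCs the lowest value (0.373) lay at 45 bp, past the TSS. In pooled fibroblasts after TNF-α the trough (0.629) was not deeper than that of same-gene pairs (0.591). Aligned on the upstream site, occupancy in pooled non-stimulated fibroblasts fell to 0.320 and the +1 peak reached 1.55, a ratio of 4.84. With pol-II S5P the lowest value was 0.330 and the peak 2.31, a ratio of 7.0, against 2.75 at lone sites. Aligned on the downstream site the ratio was 1.73, with the lowest value at 45 bp, past the TSS. The median +1 occupancy (80 to 200 bp) in the single libraries was 1.28 ± 0.13 upstream and 1.03 ± 0.15 downstream. In the 36 pairs of 2 small RNAs neither site was low, with medians of 1.02 ± 0.10 and 0.984 ± 0.093, 0 pairs with a higher and 2 with a lower downstream site. Not every host gene followed the pattern: Rabggtb and Snord45b (356 bp), among the pairs of highest coverage, gave 1.08 ± 0.36 and 1.17 ± 0.28 (limma adjusted p = 0.652).

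Whether both sites of a pair could be open was read from a test of each site alone. An NDR was called where NDR occupancy was below the mean of the site's own 2 kb window (limma, adjusted over all 13559 high-coverage sites, where 28.7% were called). Of all 1407 close sites 295 passed (21.0%). In the isolated pairs it was 131 of 490 upstream sites (26.7%) and 80 of 490 downstream sites (16.3%), and 26.9% of lone sites passed. Without the 2 libraries of another MNase entry 74 upstream and 45 downstream sites passed. Occupancy above the window mean was called for 1.5% of high-coverage sites. In same-gene pairs, both sites had a called NDR in 20, the upstream site alone in 92, the downstream site alone in 50 and neither in 226. At 150 to 300 bp the numbers were 4, 40, 18 and 65, and at 300 to 500 bp 7, 21, 14 and 75. Among pairs with 1 called NDR it was more often at the upstream site in each of the 4 bands. In the pairs with 1 small RNA, 12 had it upstream alone, 3 at both sites and 0 downstream alone.

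Examples of same-gene pairs with a called NDR at both sites follow. In Nasp, a histone chaperone, sites 454 bp apart had occupancies of 0.336 ± 0.395 and 0.361 ± 0.386 (limma adjusted p = 0.00600 and 0.00957). Slc43a2, an amino acid transporter, had 0.207 and 0.368 at 418 bp (limma adjusted p = 0.00397 and 0.00478), and Rmi1, which helps resolve DNA crossovers, had 0.220 and 0.30 at 349 bp (limma adjusted p = 0.00293 and 0.00838). In Cd63, a tetraspanin of endosomes, the sites lay 947 bp apart with 0.656 and 0.441 (limma adjusted p = 0.0286 and 0.0389). These 4 were chosen after their values were seen. Of the 24 isolated pairs with both sites called, 5 had a site at 0 in all 8 single libraries. One of them was Ly6c1, a surface marker of myeloid cells and the same-gene pair with the highest coverage (174 bp apart). Its upstream site was at 0 in the 8 single and 3 pol-II libraries, while the 4 pooled sets gave 1.13 to 1.41 upstream and 0.728 to 1.07 downstream. The pooled and single libraries thus disagree at this pair, and the cause was not tested.

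The balance of a pair differed with the position of CpG islands. An island (GC above 50% and observed to expected CpG above 0.6 within 200 bp of the TSS) was present at 51.7% of close sites, 56.2% of all high-coverage sites and 49.4% of lone sites. It was present at 61.1% of upstream and 60.8% of downstream sites of same-gene pairs. Where only the upstream site had one (52 pairs), the median balance was 0.301 ± 0.168 in the single libraries and positive in 15 of 15 libraries, between 0.0651 and 0.587. Where only the downstream site had one (51 pairs), it was −0.144 ± 0.068 and negative in 14 of 15, between −0.266 and 0.0630. Pairs with an island at both sites (185) had 0.0557 ± 0.0641, positive in 11 of 15 libraries and negative in 0, with medians of 0.504 upstream and 0.693 downstream. Pairs with none (100) had −0.0613 ± 0.0749, positive in 6 libraries and negative in 6. Over all neighbouring pairs at any distance the corresponding values were 0.359 ± 0.087 and −0.342 ± 0.090, so the relation was not particular to close sites. No p-value is given because the medians run over pairs that share libraries. Of the same-gene pairs with the island upstream only, 5 of 52 (9.62%) were called higher downstream, and of those with both 12 of 185 (6.49%), against 12.9% and 3.57% of all neighbouring pairs in these classes. The lower calls numbered 4 in pairs with both islands and 1 in pairs with the island downstream only (1.96%, against 12.0% of all neighbouring pairs of that class). The motif TATAAA on the transcribed strand, 40 to 20 bp before the TSS, was found at 8 of 1407 close sites (0.569%), against 1.63% of all high-coverage sites and 1.96% of lone sites.

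**Figure D4:**
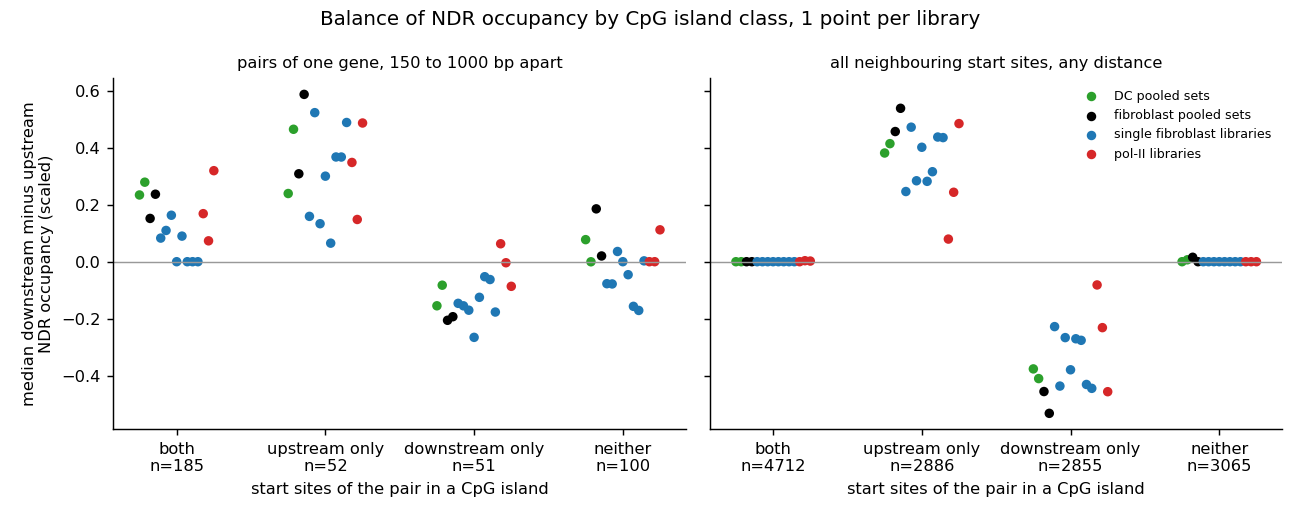
Median balance (downstream minus upstream NDR occupancy, vertical axis) by which site of a pair has a CpG island, 1 point per library (15 libraries), for same-gene close pairs and for all neighbouring pairs. With the island upstream only all points of close pairs lie above 0 (0.0651 to 0.587), and with it downstream only 14 of 15 lie below.

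As a set, the close sites, which include small RNAs and repeated families, were less often expressed. What each kind of site contributed to this was not tested. By the authors' expression values before stimulation, with a threshold of 0.02 times the mean of all promoters of the cell-type, 652 of the 1407 close sites (46.3%) were expressed in DCs against 61.8% of high-coverage sites, and 475 (33.8%) against 47.6% in fibroblasts. In the same-gene pairs both sites were expressed in 154, the upstream site alone in 63, the downstream site alone in 67 and neither in 104 in DCs, and in 67, 76, 92 and 153 in fibroblasts. The upstream and downstream sites were thus expressed about equally often, although the NDR was more often upstream. Among pairs with an expressed site, the site with the higher expression had the lower NDR occupancy in 52.1% and 56.5% of pairs in the DC sets and in 43.8% to 53.9% in the 13 fibroblast libraries, near an even split. How the expression of sites this close was separated is not given in the sources used here, and its part in these shares was not tested.

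The patterning level measures how far a promoter follows the mean profile of active promoters. It is the sum over bins of a centred template times the deviation of scaled occupancy. The template came from the pooled non-stimulated set of the same cell-type, so DC and fibroblast levels were scored against different profiles. Close sites had lower medians than all high-coverage sites in 15 of 15 libraries, for example 1.78 against 3.44 in non-stimulated DCs, 2.17 against 3.51 in pooled non-stimulated fibroblasts and 2.57 against 5.79 with pol-II S5P. The close sites include small RNAs, and upstream sites of same-gene pairs did not share the lower level throughout. Their median was below that of all high-coverage sites in some libraries (2.71 against 3.44 in non-stimulated DCs). It was above in others (3.99 against 3.35 in control non-stimulated replicate 2). In same-gene pairs the upstream sites had the higher median in 14 of 15 libraries, with pol-II S5P at 5.50 upstream and 2.39 downstream. The exception was control stimulated replicate 2, with 2.56 upstream and 2.78 downstream. Lone sites had a median of 5.08 with pol-II S5P, so in that library the lower level was at the downstream sites.

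The balance of a pair was weakly shared between libraries. Across the 388 same-gene pairs, Spearman's rho of the balance was 0.0760 to 0.368 between replicates, 0.334 between the 2 DC sets, 0.432 between the 2 pooled fibroblast sets and 0.309 and 0.329 between DCs and fibroblasts in the same state. Over all neighbouring pairs the replicates gave 0.223 to 0.326 and the other 4 comparisons 0.433 to 0.498. The points of each correlation share libraries, and both sites of a close pair share fragments. The upstream and downstream NDR occupancies of a pair were nearly unrelated, with rho between −0.110 and 0.0230 by library. In 13 isolated pairs (2.65%) the downstream site was higher in all 15 libraries and in 2 (0.408%) lower, against 1.37% and 1.46% of all neighbouring pairs. At 150 to 300 bp, 36 of 127 same-gene pairs had the higher site downstream in all 4 pooled sets and 11 had it lower, whereas at 500 to 750 bp these were 13 and 19 of 92.

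No pair changed its balance between cell-types or conditions by limma at an adjusted p of 0.05, and none of the 13518 neighbouring pairs did (0%). Between DCs and fibroblasts, with the 2 states of a cell-type standing in for replicates, 46 of 490 isolated pairs (9.39%) had an unadjusted p under 0.05 against 6.90% of all pairs, and the smallest adjusted p was 0.721. With a trend and robust setting of limma these were 42 pairs. The largest difference was in Gpr174, whose sites are 150 bp apart. Both sites were occupied in DCs (1.14 and 0.929 before LPS, 0.631 and 0.684 after), and in pooled fibroblasts the upstream site was at 4.08 and 1.92 and the downstream site at 0 and 0 (difference of balances 2.92, SE 0.743, limma adjusted p = 0.721). Vps26a, a subunit of the retromer complex of endosomal sorting, had the opposite change at 207 bp. The DC sets gave 0.681 and 1.48 upstream and 0 and 0.238 downstream, and pooled fibroblasts 0 and 0 upstream and 1.21 and 2.14 downstream (difference −2.63, SE 0.470, limma adjusted p = 0.721). Zmym5, Odf2 and Svip followed with differences of 2.67, −2.54 and −2.22. In each of these 5 pairs the DC minus fibroblast difference of balances had the same sign in both states. The balance itself need not have kept its sign: in DCs the Gpr174 site with the lower occupancy changed upon LPS. None of the 5 passed the test, which had 4 sets.

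Upon BAF knockdown the balance changed in 0 isolated pairs by limma, with 30 (6.12%) at an unadjusted p under 0.05 against 5.71% of all pairs (31 with a trend), a smallest adjusted p of 0.841 and a background of 0%. Upon TNF-α it changed in 0, with 22 unadjusted (4.49%) against 5.57% (28 with a trend) and a smallest adjusted p of 0.892. For the patterning level of the 1407 close sites there were also 0 limma calls upon knockdown and 0 upon TNF-α, with 84 (5.97%) and 83 (5.90%) at an unadjusted p under 0.05 against 5.85% and 5.71% of high-coverage sites, and 76 and 73 with a trend. The counts of 0 were unchanged with the replicate number as a block and without the 2 libraries of another MNase entry. The single libraries fell into 2 levels of patterning over all high-coverage sites, with medians of 2.36 to 2.51 in the first control replicates and both non-stimulated knockdown libraries and 3.32 to 3.39 in the second control replicates and both stimulated knockdown libraries. Each arm of the knockdown comparison thus held 2 libraries of each level, whereas within knockdown cells the level cannot be told apart from TNF-α. Its part in these results was not tested. In simulated data of this design the same test recovered 8% of knockdown shifts of 1.5 and 58% of shifts of 3 in the balance, so that changes of the size seen between the 2 sites of a pair would mostly not be called.

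Few genes of the regulatory lists had such pairs. Of 24 BAF subunit genes 13 had a high-coverage TSS and 0 were close sites. Of 45 NF-κB and early response genes 26 had one and 2, Irf1 and Nfkb2, were close sites. Irf1, an interferon regulatory factor of the early response, has sites 459 bp apart with occupancies of 0.151 ± 0.251 and 0.610 ± 0.541 (difference 0.46, SE 0.262, limma adjusted p = 0.290), and its upstream site had a called NDR (limma adjusted p = 0.00267). Of 36 general transcription and chromatin genes 20 had a high-coverage TSS and 3 were close sites. Dnmt1, the maintenance DNA methyltransferase, had 1.04 and 1.41 at 356 bp (limma adjusted p = 0.606), Med1 of the Mediator complex 0.696 and 0.668 at 387 bp (limma adjusted p = 0.988), and Taf9 of TFIID 0.838 and 1.35 at 264 bp (limma adjusted p = 0.452). None of these pairs passed the test in either direction.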

How the data were processed

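ChIP-MNase values of 15 mouse libraries were used. The authors aligned reads to mm9 (the submitters' processing notes name Bowtie2 and bedtools), kept fragments of 140 to 180 bp where reads were paired and extended single-end reads, counted them in 10 bp bins and normalised to the surrounding 1 kb. The deposited occupancies are this signal, not counts, and single and pooled libraries differ in mean (0.791 to 1.63), so each was divided by its mean over high-coverage promoters. The deposited coverage score and expression scores come from the authors' promoter annotation. Its columns of expression differences upon stimulation hold the authors' own comparisons and were not used. H3K4me1 reads were single-end and pol-II reads paired-end, so antibody and sequencing cannot be told apart. An empty bin was read as 0.

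Members, gene lists and tests were chosen with earlier results of these data known. Limma (3.58.1, R 4.3.3) was fitted over whole tables with stimulation and knockdown as centred terms, with Benjamini-Hochberg adjustment at 0.05. Named pairs were isolated pairs: the 6 with the largest balance in each direction that passed and had 1 sign in all 8 single libraries, the 2 of highest summed coverage in each of 4 distance bands, the 3 in each direction with the largest cell-type difference, and the 4 of lowest summed occupancy. A pair that this rule names is not reported here. Calls and names outside this rule are said to be chosen after values were seen. In a simulated table of 13518 pairs, 100 were changed by 1.5 and 100 by 3, with normal noise that lacks the exact zeros of the data. The balance test recovered 68% of differences of 1.5 and 99% of 3, with 6 false calls. Both sizes were adjusted together, so the recovery at 1.5 was not measured alone. Sequence was read with pysam 0.24.0 from the mm9 reference, and other steps used Python 3.11.15, numpy 2.4.6, pandas 2.3.3 and matplotlib 3.10.9. Alternatives were the unscaled values, log2(value + 0.1), a window from −100 bp, a coverage score above 200, other libraries, a replicate block, limma with a trend, leaving out each library and, added after seeing the data, leaving out the 2 knockdown libraries of another MNase entry in the file names.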

Additional observations from a re-analysis of the deposited data

Results flagged for a closer look

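In the 36 pairs of 2 small RNAs, both DC sets had a median balance of NDR occupancy of the opposite sign to both pooled fibroblast sets. The DC minus fibroblast difference, as the median over sets, was −0.115 in scaled occupancy. The difference was not tested, and each cell-type has 1 pooled set per state.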

How the results depend on the processing

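The count of 29 isolated pairs with a higher downstream site was 11 with a window from −100 bp, 19 with coverage scores above 200, 0 with the 2 pooled fibroblast sets, the 3 pol-II libraries or the 4 control libraries alone, and 0 to 12 when 1 library was left out. The count of 8 lower pairs was 14 on the log2 scale, 4 with the narrower window, 15 when each close site was paired with its nearest partner in all clusters, 0 with the pooled, pol-II or control libraries alone, and 0 to 2 when 1 library was left out. The 131 called upstream NDRs became 86 at the higher coverage minimum. Without the 2 libraries of another MNase entry, an alternative added after seeing the data, the counts of pairs were 0 and 0, those of NDRs 74 upstream and 45 downstream (from 80), and the 12 named differences kept their direction (adjusted p = 0.126 to 0.235). The median balance of 0.0255 was 0.119 in pooled fibroblasts and 0.101 in pol-II libraries. The direction turned for Hdhd2 with pol-II (0.17), for Mir669c and Mir669a-2 with pooled fibroblasts (0.18) and for A930001C03Rik with pooled fibroblasts (0.03). With the narrower window 2 of the 12 named pairs passed. The cause of these changes was not tested. Counts of 0 upon knockdown, TNF-α and between cell-types stayed 0 in every alternative run.

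With the replicate number as a block the counts were 22 higher and 6 lower, and 7 of the 12 named pairs passed. Deviations of same-numbered replicates correlated at −0.0152 to 0.0147, so no pairing was seen in them. A correlation does not show a level shared by whole libraries, so it cannot decide whether same-numbered replicates share a batch. The file names give all first replicates a shared tag and all second replicates another, whose meaning is not stated. An alternative without sites empty in a single library, chosen after seeing the data, gave 29 and 11. Limma with a trend gave 30 and 12. Depth is unknown, and the share of covered bins is the one sign of it.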

Other observations

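In the 8 single libraries the pairs with the lowest occupancy were repeated genes. Mageb1 and Mageb2, genes of the melanoma antigen family with sites 150 bp apart, are present as 2 copies on chromosome X, and both sites were at 0 in the 8 single libraries in each copy. Gm13278 and Gm13285 (655 bp) on chromosome 4 were at 0 in all 15 libraries at both sites, and Srp54b with Srp54a at 0 in the 8 single libraries. The 4 pooled sets had means of 0.785 and 0.725 at a copy of Mageb1 and Mageb2, and the pol-II libraries reached 4.10 at Mageb1. At Srp54b and Srp54a the pooled means were 0.667 and 0.559, and the 3 pol-II libraries were at 0. The cause of this disagreement was not tested. Of the other pairs of highest coverage, Eno3, the muscle enolase (583 bp), had 0.891 upstream and 0.817 downstream (limma adjusted p = 0.711), Snord4a and Snord42a (410 bp) had 0.968 and 0.624 (limma adjusted p = 0.354), and AI450353 and Snord7 (874 bp) had 1.14 and 0.798 (limma adjusted p = 0.204).

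Some differences past the threshold were larger than most of the named ones but did not have 1 sign in all 8 single libraries: Dync1i2, a dynein intermediate chain, at 1.96, Txlna at 1.56, Dtnb at 1.53 and Svbp at 1.48. They and Gpx4 were chosen after their values were seen. Gpx4, which reduces lipid peroxides, had 0.0450 upstream and 1.08 downstream at 527 bp (limma adjusted p = 0.0272).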
